A study of Drosophila melanogaster with 2 samples.

Results

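The sarcomere is the contractile unit of striated muscle, in which thick filaments of myosin pull on thin filaments of actin that are anchored in the Z-disc. Calcium that binds troponin C shifts troponin I, troponin T and tropomyosin on the thin filament and lets myosin act. Drosophila builds several muscle types from partly different members of the same gene families. The indirect flight muscles and the jump muscle use actin and troponin C genes that body wall muscles use little. The level of contractile gene messages was compared here between whole adult male flies with forced expression of the microRNA miR-305 and males without it.

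The miR-305 group was da-Gal4/UAS-miR305, in which the daughterless driver da-Gal4, active throughout the body, expressed a miR-305 transgene. The control group was da-Gal4/+, so both groups carried the driver and only the miR-305 group carried the transgene. All flies were males of 15 days, and RNA came from the whole body. Each group had 1 library, so no difference below has a replicate check, an error or a test, and the spread between flies is unknown. The labels do not say how many flies made up a library. Because the driver acts in all tissues and the RNA is from whole flies, fewer muscle cells and less RNA per muscle cell cannot be told apart.

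The genes were chosen by name: 30 genes of the contractile apparatus, of which 27 had a feature of their own among the 15906 features of the deposited table. The other 3 shared a feature with another gene. Act57B, a muscle actin of larval and adult body muscles, was merged with a small nucleolar RNA gene, Actn (alpha-actinin) with the nuclear receptor gene usp, and Msp300 (a giant nesprin that anchors muscle nuclei) with 3 small noncoding RNA genes. All 27 passed the filter of a mean of at least 1 FPKM (fragments per kilobase of transcript, relative to all mapped fragments). They fall into 5 genes of flight and jump muscle, 16 general thick and thin filament genes and 6 genes of the Z-disc and muscle attachment. None was listed at 0 in either library.

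The sarcomere genes had similar levels in both libraries as deposited. Their FPKM values summed to 4351 in miR-305 and 4613 in control, a ratio of 0.943, or 0.994 after scaling to a common median and 0.775 after scaling to a common sum. As deposited, the ratio of sums was 1.07 over all features in the range of the means of the 27 genes. It was 1.22 over all features past the filter. Single genes lay between 11.4 and 427 FPKM in miR-305 and between 12.8 and 559 FPKM in control. The ratio of each gene is given as log2((miR-305 FPKM + 1)/(control FPKM + 1)), a scale that understates the difference of low genes. On this scale the median of the 27 genes was -0.02, with quartiles of -0.15 and 0.08. Over all 11936 features past the filter the median was -0.03, with quartiles of -0.24 and 0.18. The background depended on level with the deposited scaling. Its median was 0.02 over the 5723 features in the range of the means of the 27 genes. Among the 1181 features with a mean of at least 100 FPKM it was 0.13, with quartiles of -0.06 and 0.37. The sarcomere genes with a mean that high lay between -0.39 (Mf) and 0.12 (Mlp84B), all below that median.

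**Figure D1:**
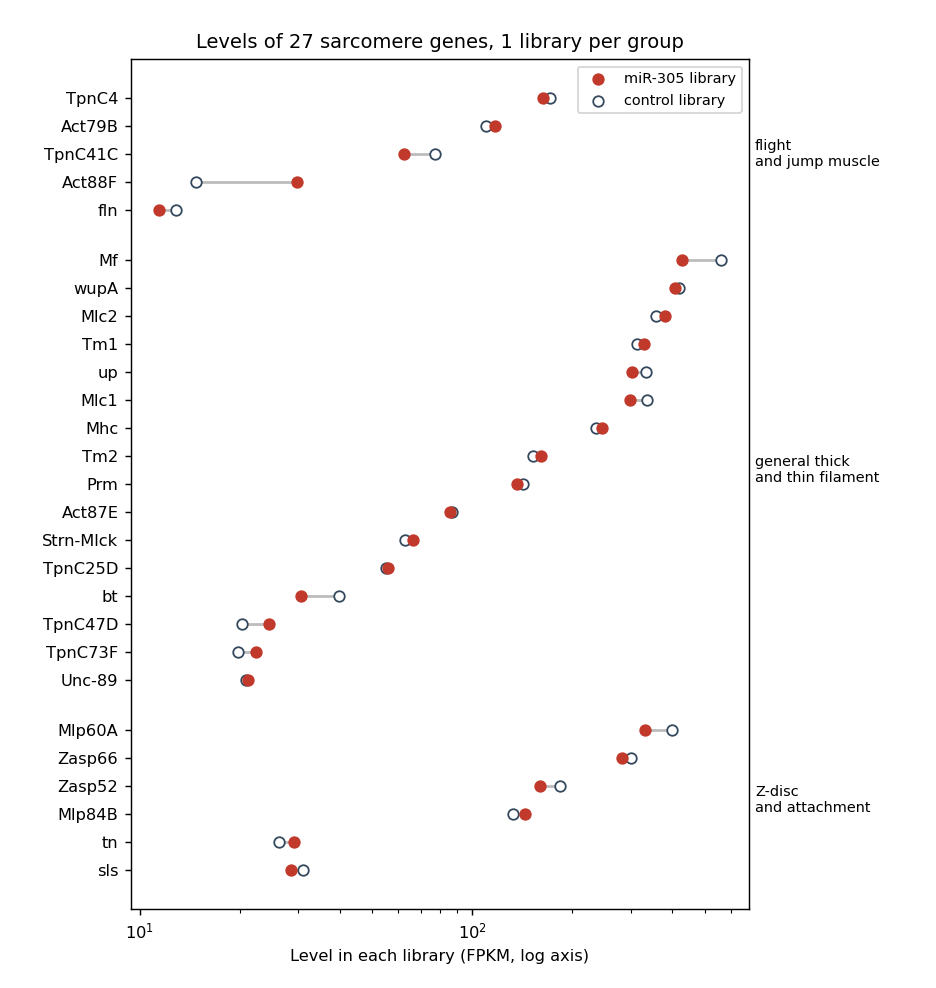
Levels of the 27 sarcomere genes that have a feature of their own, in FPKM on a log axis, with 1 filled point for the miR-305 library and 1 open point for the control library in each row. The points of a row lie close together for most genes, and Act88F (29.6 FPKM in miR-305, 14.8 FPKM in control) shows the widest gap among the 27.

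No sarcomere gene was at least 2-fold higher in the miR-305 library on the log2(FPKM + 1) scale, where 2.36% of all features were, and none was at least 2-fold lower, where 1.74% of all features were. A share of 0 of 27 is near these rates and is no result about the sarcomere genes. Of the features past 2-fold, 57.6% were higher in miR-305, and this share was 32.7% with the same sum and 46.6% with the same sum outside the 50 most abundant features. With a threshold of 1.5-fold, 1 sarcomere gene (Act88F) was higher, as were 6.0% of all features, and 0 were lower, as were 5.97% of all features. With a threshold of 1.2-fold, a choice made after the values were seen, Act88F was higher and 4 genes (Mf, bt, TpnC41C and Mlp60A) were lower. TpnC47D was 1.203-fold higher without the added 1 and fell just short of 1.2-fold with it, so these counts depend on the added 1. Among all 6747 features with a mean of at least 10 FPKM, which each of the 27 genes reached, 20.7% were at least 1.2-fold higher and 19.7% at least 1.2-fold lower, or 40.4% in either direction. Thus 22 of 27 sarcomere genes (81.5%) lay within 1.2-fold, beside 59.6% of those features. These shares were 44.4% of the sarcomere genes and 43.6% of the features with the same sum, and 66.7% of the sarcomere genes and 58.0% of the features with the same sum outside the 50 most abundant features. Genes of 1 tissue share their source, and 27 genes from 1 pair of libraries are not 27 independent observations.

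**Figure D2:**
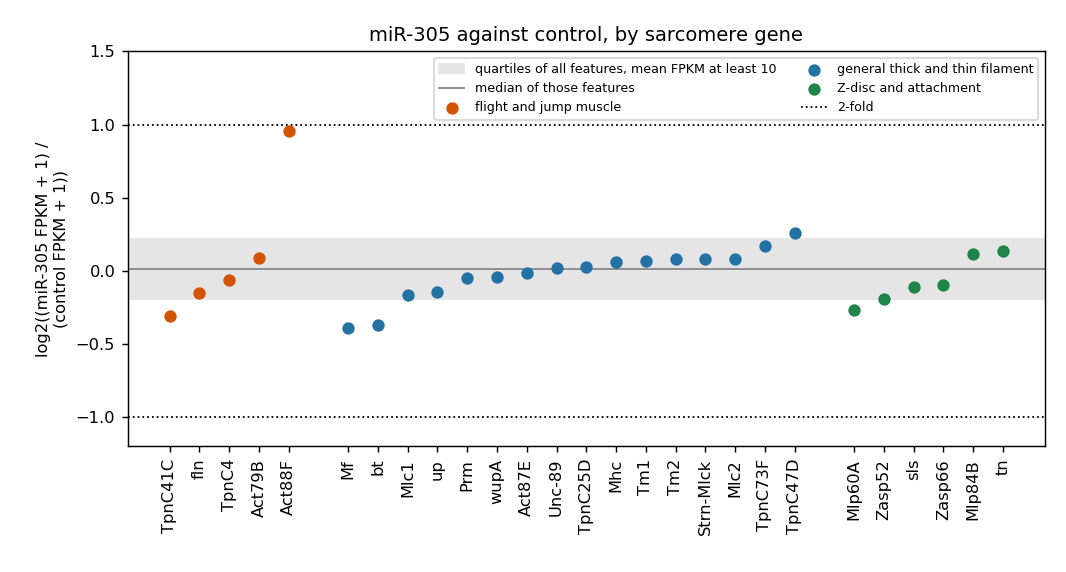
The log2 ratio of miR-305 over control for each of the 27 sarcomere genes, in 3 groups. The grey band spans the quartiles of all features with a mean of at least 10 FPKM (-0.19 to 0.22), the grey line is their median, and dotted lines mark 2-fold. Act88F at 0.96 stands apart from the other 26 genes, which lie between -0.39 and 0.26.

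The flight and jump muscle genes held the largest difference among the 27. Act88F (3R, 15439969 to 15442177), the actin of the indirect flight muscles, had 29.6 FPKM in miR-305 and 14.8 FPKM in control. Without the added 1 this is 2.01-fold higher, and on the log2(FPKM + 1) scale 0.96, just short of 2-fold. The ratio was above 0 under each of 5 scalings, between 0.69 with the same sum and 1.03 with the same median, and it passed 2-fold only with the same median. Act88F ranked 21 of the 27 genes by level in miR-305 and 26 in control. The remaining flight and jump muscle genes lay nearer to equal with the deposited scaling. TpnC4, the main troponin C isoform of flight muscle, had 164 FPKM in miR-305 and 171 FPKM in control. TpnC41C, a troponin C isoform of jump and flight muscle, had 62.3 FPKM in miR-305 and 77.3 FPKM in control, a log2 ratio of -0.31. Act79B, the actin of the jump muscle and other tubular muscles, had 117 FPKM in miR-305 and 110 FPKM in control. TpnC4 and Act79B lay within 1.2-fold, and TpnC41C was past it.

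Flightin (fln), a myosin-binding protein of flight muscle thick filaments, was the lowest of the 27 genes, with 11.4 FPKM in miR-305 and 12.8 FPKM in control. It overlaps an antisense RNA gene, CR45161, on the opposite strand of 3L, which had 92.1 FPKM in miR-305 and 100.3 FPKM in control. No source used here gives the strand setting of the counting, so reads of fln and CR45161 cannot be told apart and the level of fln is uncertain. Both had a lower value in the miR-305 library. Exons of Strn-Mlck, Act87E, TpnC25D, Tm1 and sls also overlap a gene on the opposite strand. Act88F has no such partner in the annotation, but the coding sequences of fly actin genes are alike, and reads shared among them are of uncertain assignment.

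The muscle actins differed unequally. Act87E, an actin of body wall muscle, had 85.9 FPKM in miR-305 and 87.0 FPKM in control, and its log2 ratio was -0.02. Over Act88F, Act79B and Act87E, Act88F made up 12.8% of the summed FPKM in miR-305 and 6.98% in control. Act79B made up 50.3% in miR-305 and 51.9% in control, and Act87E made up 37.0% in miR-305 and 41.1% in control. These shares do not depend on how the libraries are scaled. The feature that holds Act57B beside a small nucleolar RNA had 395 FPKM in miR-305 and 308 FPKM in control, a log2 ratio of 0.36. The cytoplasmic actins, which all cells use, had 536 FPKM in miR-305 and 583 FPKM in control for Act5C, and 54.7 FPKM in miR-305 and 65.4 FPKM in control for Act42A.

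**Figure D3:**
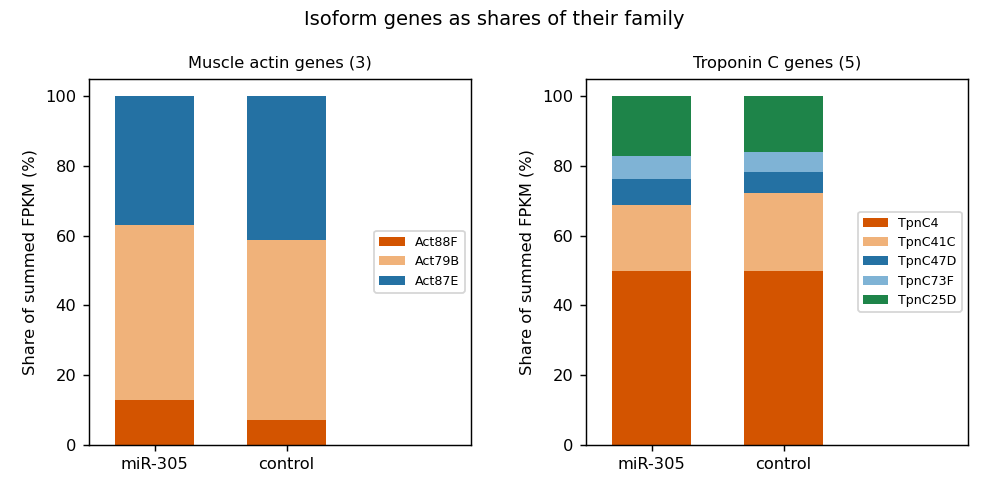
Shares of the summed FPKM held by each gene of 2 families, the 3 muscle actins with features of their own and the 5 troponin C genes, with the miR-305 library left of the control library in each panel. Act88F holds 12.8% of the sum of these 3 muscle actins in miR-305 and 6.98% in control, and TpnC4 holds 49.8% of the troponin C sum in both. The feature that holds Act57B is left out.

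The troponin C genes, which encode the calcium sensor of the thin filament, stood in similar proportions. TpnC4 made up 49.8% of the family's summed FPKM in each library. TpnC41C held 18.9% in miR-305 and 22.5% in control. The isoforms of other muscles held slightly more of the sum in miR-305. TpnC47D had 24.4 FPKM in miR-305 and 20.3 FPKM in control, the second highest log2 ratio of the 27 genes at 0.26, although with the same sum it was -0.02. TpnC73F had 22.3 FPKM in miR-305 and 19.8 FPKM in control, a log2 ratio of 0.17 that was -0.10 with the same sum. TpnC25D was near equal, with 55.9 FPKM in miR-305 and 54.9 FPKM in control.

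The rest of the thin filament was close to equal. Troponin I (wupA, X, 18105568 to 18116922), which holds the thin filament off at low calcium, had 407 FPKM in miR-305 and 419 FPKM in control. Troponin T (up, X, 13593474 to 13602578), which ties troponin to tropomyosin, had 302 FPKM in miR-305 and 334 FPKM in control. The ratio of the wupA level to the up level was 1.35 in miR-305 and 1.25 in control. The tropomyosins, which lie along actin and block myosin at rest, are neighbours on 3R. Tm1 had 329 FPKM in miR-305 and 314 FPKM in control, and Tm2 had 161 FPKM in miR-305 and 153 FPKM in control. The level of Tm1 relative to Tm2 was 2.04 in miR-305 and 2.05 in control. Tm1 also makes cytoplasmic isoforms, which a value per gene does not separate. Over the 8 general thin filament genes with a feature of their own, the log2 ratios lay between -0.15 and 0.26, with a median of 0.05.

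Among the thick filament genes, muscle myosin was near equal and a pair of accessory proteins was lower. Myosin heavy chain (Mhc, 2L, 16766566 to 16788766), the motor, had 245 FPKM in miR-305 and 235 FPKM in control. The regulatory light chain gene Mlc2 had 379 FPKM in miR-305 and 358 FPKM in control, and the alkali light chain gene Mlc1 had 299 FPKM in miR-305 and 336 FPKM in control. The level of Mlc2 relative to Mhc was 1.55 in miR-305 and 1.53 in control, whereas that of Mlc1 relative to Mhc was 1.22 in miR-305 and 1.43 in control. Mhc, Mlc1 and Mlc2 together summed to 923 FPKM in miR-305 and 929 FPKM in control. The nonmuscle myosin genes zip (heavy chain), sqh and Mlc-c (light chains) summed to 216 FPKM in miR-305 and 250.2 FPKM in control.

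Myofilin (Mf, 3R, 15170625 to 15181510), a core protein of thick filaments, was the most abundant of the 27 genes in both libraries, with 427 FPKM in miR-305 and 559 FPKM in control. Its log2 ratio of -0.39 was the lowest of the 27 and stayed below 0 under each of 5 scalings, from -0.67 with the same sum to -0.32 with the same median. Paramyosin (Prm), the other core protein on the list, was near equal with 137 FPKM in miR-305 and 142 FPKM in control. Relative to Mhc, Mf stood at 1.74 in miR-305 and 2.38 in control, and Prm at 0.558 in miR-305 and 0.604 in control.

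Projectin (bt, chromosome 4, 724400 to 776474), an elastic giant protein that links thick filaments to the Z-disc in flight muscle, had 30.7 FPKM in miR-305 and 39.9 FPKM in control, a log2 ratio of -0.37. It was below 0 under each of 5 scalings (-0.64 to -0.29). It is the only one of the 27 genes on chromosome 4, where the median log2 ratio of all 86 expressed features was -0.22. The other giant proteins were nearer to equal. Obscurin (Unc-89), which organises the M-line, had 21.1 FPKM in miR-305 and 20.9 FPKM in control, and the stretchin gene Strn-Mlck, with titin-like and kinase products, had 66.3 FPKM in miR-305 and 62.8 FPKM in control.

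The Z-disc and attachment genes with a feature of their own lay between -0.27 and 0.14, with a median of -0.10. Of these 6 genes, 4 were below 0, beside 3241 of 6747 features with a mean of at least 10 FPKM. For features with a mean of at least 100 FPKM, which Zasp52, Zasp66, Mlp60A and Mlp84B reached, 399 of 1181 were below 0. Only Mlp60A of these 6 was past 1.2-fold with the deposited scaling. The muscle LIM proteins, which sit at the Z-disc, lay on opposite sides with the deposited scaling. Mlp60A had 331 FPKM in miR-305 and 398 FPKM in control, a log2 ratio of -0.27, and Mlp84B had 144 FPKM in miR-305 and 132 FPKM in control, a log2 ratio of 0.12 that was -0.16 with the same sum. The level of Mlp60A relative to Mlp84B was 2.30 in miR-305 and 3.01 in control. The PDZ proteins that bind alpha-actinin were both somewhat lower. Zasp52 had 160.1 FPKM in miR-305 and 183 FPKM in control, and Zasp66 had 282 FPKM in miR-305 and 301 FPKM in control.

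Sallimus (sls, 3L, 2039681 to 2115611), the titin-like spring of the I-band, had 28.5 FPKM in miR-305 and 30.9 FPKM in control. The gene thin (tn), whose TRIM protein maintains the attachment of myofibrils, had 29.0 FPKM in miR-305 and 26.3 FPKM in control. The feature that holds Actn and usp had 50.3 FPKM in miR-305 and 52.5 FPKM in control, and the one that holds Msp300 had 62.8 FPKM in miR-305 and 59.4 FPKM in control. With these shared features and that of Act57B included, the median log2 ratio of all 30 genes was -0.001, against -0.02 for the 27.

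The direction of small differences depended on how the libraries were scaled. The same sum in both libraries shifted the median of all features by -0.25 and put 26 of the 27 sarcomere genes below 0, where the deposited scaling had 14. Relative to the median of all features, the sarcomere median differed by 0.007 with the deposited scaling and by -0.03 with the same sum. Relative to features with a mean of at least 10 FPKM, the sarcomere median differed by -0.03 with the deposited scaling. Neither background matches the more abundant sarcomere genes, because features with a mean of at least 100 FPKM had a median of 0.13. The same sum outside the 50 most abundant features shifted the median of all features by -0.11 and put 23 genes below 0. Across the deposited values and 4 other scalings, 11 of the 27 genes kept 1 sign. Act88F was above 0 throughout, and 10 genes, namely Mf, bt, TpnC41C, Mlp60A, Zasp52, Mlc1, fln, up, sls and Zasp66, were below 0 throughout. Each scaling multiplies all miR-305 values by 1 factor, from 0.822 to 1.05. A kept sign therefore restates the size of the deposited ratio and is no separate check of it. These factors lower the ratios farther than they raise them, so a small ratio below 0 keeps its sign more readily than one above 0.

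**Figure D4:**
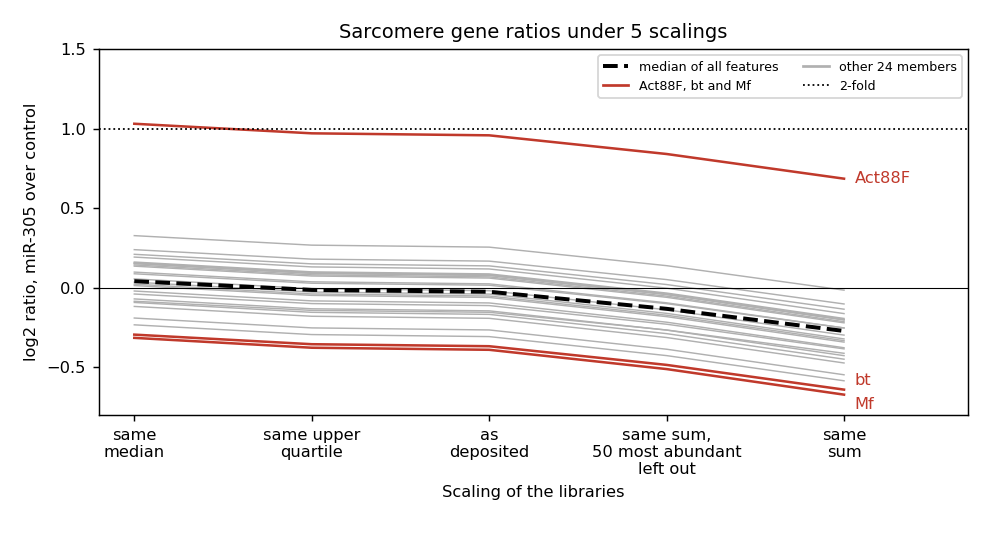
The log2 ratio of miR-305 over control for each of the 27 sarcomere genes under 5 scalings of the libraries, with the dashed line at the median of all features and the dotted line at 2-fold. All genes move with the median of all features, Act88F stays between 0.69 and 1.03, and Mf and bt stay lowest among the 27.

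The longest annotated transcripts of the 27 genes ran from 791 nt (TpnC47D) to 56489 nt (sls). Across the 27 genes, the log2 ratio and log10 length had a Pearson r of -0.21 and a Spearman rho of -0.20, as a description over genes that share both libraries. The 4 genes with transcripts of 10000 nt or more (bt, sls, Unc-89 and Strn-Mlck) had a median log2 ratio of -0.05, beside -0.10 for all 40 protein-coding features of that length with a mean of at least 10 FPKM. The 9 genes with transcripts of at least 2000 nt and under 10000 nt had a median of 0.06, beside -0.006 for 2111 such features. The 14 genes with transcripts under 2000 nt had a median of -0.03, beside 0.03 for 3798 such features. Mf, Tm1, Tm2 and Act88F lie in the same part of 3R, between 15170625 and 15442177, and held both the lowest and the highest log2 ratio of the 27. Many of the genes make several isoforms, with 21 annotated transcripts for Mhc and 22 for Zasp52, and a value per gene does not show a shift among them.

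Other muscle genes were described with 6 further lists, which held 61 expressed features. Of these, 0 were at least 2-fold higher in miR-305, beside 2.36% of all features, and 0 were at least 2-fold lower, beside 1.74%, so the counts are near the background and are no result about these genes. For calcium handling, 6 of 15 listed names had a feature of their own, and their median log2 ratio was -0.03. The calcium pump gene Ca-P60A, which refills the sarcoplasmic reticulum, had 189 FPKM in miR-305 and 146 FPKM in control, a log2 ratio of 0.37 that stands on the opposite side from the T-type channel gene Ca-alpha1T, with 2.64 FPKM in miR-305 and 4.04 FPKM in control. The ryanodine receptor gene RyR was near equal, with 11.9 FPKM in miR-305 and 11.4 FPKM in control. For sarcomere assembly and turnover, 10 of 15 names had a feature and the median was -0.03. The chaperone gene Hsp83 had 190 FPKM in miR-305 and 290 FPKM in control, and tropomodulin (tmod), which caps thin filaments, had 26.0 FPKM in miR-305 and 35.9 FPKM in control. The myosin chaperone gene unc-45 had 28.0 FPKM in miR-305 and 28.4 FPKM in control. RyR and unc-45 were named after their values were seen.

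The 15 of 18 muscle attachment genes with a feature of their own, such as the integrins that hold muscle ends to tendon, had a median of -0.003 and lay between -0.21 and 0.20. Focal adhesion kinase (Fak) had 5.64 FPKM in miR-305 and 6.70 FPKM in control, and integrin-linked kinase (Ilk) had 52.3 FPKM in miR-305 and 45.6 FPKM in control. Regulators of muscle identity and splicing tended to lie below 0. Of 13 expressed genes of that list, 12 were below 0, beside 6394 of 11936 for all features. Their median was -0.21, and it became -0.42 with the same sum and -0.15 with the same median. Those of the list with a mean of at least 10 FPKM had a median of -0.18, beside 0.01 for all such features. The flight muscle selector gene vg had 0.749 FPKM in miR-305 and 1.70 FPKM in control, the homeobox gene hth had 3.81 FPKM in miR-305 and 6.12 FPKM in control, and the RNA-binding gene how had 9.62 FPKM in miR-305 and 13.2 FPKM in control. These genes also act outside muscle. Because vg was below 1 FPKM in miR-305, only its control value carried it past the filter, and its sign was thereby fixed in advance. The general muscle activator Mef2, named after its value was seen, was near equal with 11.8 FPKM in miR-305 and 12.1 FPKM in control.

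Enzymes that fuel flight muscle lay mostly above 0 with the deposited scaling. Of 7 expressed genes, 6 were above 0, beside 5542 of 11936 for all features. Among features with a mean of at least 100 FPKM, 782 of 1181 were above 0, with a median of 0.13. The list median was 0.26, and it was -0.02 with the same sum, where all features had a median of -0.27. Glycerol-3-phosphate dehydrogenase (Gpdh), part of the shuttle that carries reducing power into flight muscle mitochondria, had 507 FPKM in miR-305 and 340.1 FPKM in control. Its mitochondrial partner Gpo-1 had 41.2 FPKM in miR-305 and 32.7 FPKM in control, and arginine kinase (Argk), which buffers ATP, had 700.3 FPKM in miR-305 and 574 FPKM in control. These enzymes serve the fat body and other tissues too. Of all features with a mean of at least 10 FPKM, 3241 of 6747 lay below 0, with a median of 0.01. Each of the 10 expressed nonmuscle actomyosin genes reached that mean, and 8 of them lay below 0, with a median of -0.16. The spectrin gene beta-Spec, with 40.7 FPKM in miR-305 and 48.1 FPKM in control, and Act42A and Mlc-c were farthest from equal among these.

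**Figure D5:**
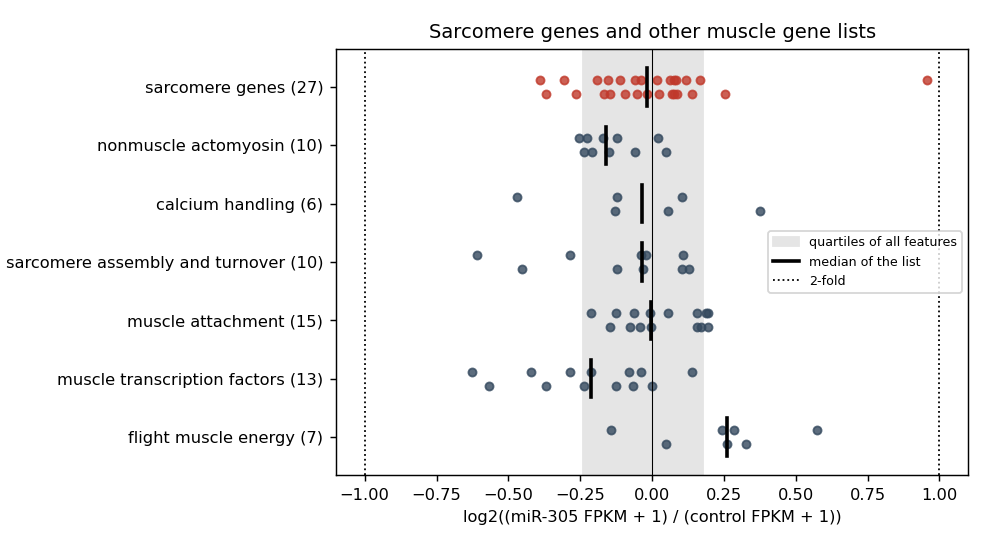
The log2 ratio of miR-305 over control for the 27 sarcomere genes and for the expressed genes of 6 other lists, with the number of genes in parentheses, 1 point per gene and a bar at each list's median. The grey band spans the quartiles of all features (-0.24 to 0.18). No point reaches 2-fold, and the medians lie between -0.21 for muscle transcription factors and 0.26 for flight muscle energy genes.

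Values of the whole libraries stand beside these results. The mir-305 stem-loop, which checks the labels, was at 546 FPKM in miR-305 and listed at 0 in control. Markers of the accessory gland (7 of 9 listed genes with their own feature) summed to 55164 FPKM in miR-305 and 27032 FPKM in control. Of the fat body markers, 5 of 7 had their own feature, and the 4 past the filter summed to 628 FPKM in miR-305 and 211 FPKM in control. Most of this sum was Lsp2, with 514 FPKM in miR-305 and 159 FPKM in control. Midgut markers (7 of 7) summed to 5272 FPKM in miR-305 and 3566 FPKM in control. Testis markers (8 of 10) summed to 1097 FPKM in miR-305 and 1752 FPKM in control. Neuron markers (7 of 7) summed to 92.0 FPKM in miR-305 and 97.7 FPKM in control, with 5 of the 7 log2 ratios below 0 and a median of -0.18. Photoreceptor markers (7 of 7) summed to 4291.5 FPKM in miR-305 and 4218 FPKM in control, although 6 of the 7 log2 ratios were below 0 and the median was -0.32. The most abundant of them, the rhodopsin gene ninaE, was the exception with the deposited scaling, at 2685 FPKM in miR-305 and 2206 FPKM in control. Over all features past the filter, 6394 of 11936 log2 ratios were below 0. None of the markers of these tissues was listed at 0 in either library. The sarcomere genes made up 0.370% of all FPKM in miR-305, whose features summed to 1176980 FPKM, and 0.477% in control, whose features summed to 967511 FPKM. The part of other tissues in the sarcomere ratios was not tested.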

How the data were processed

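Polyadenylated RNA of 15-day-old males was profiled in 2 libraries, 1 per group. The authors deposited 1 FPKM value per library and feature; the tools named were TopHat2 2.0.13, Cufflinks 2.2.1 and FastQC 0.11.5, with the dm6 build, per the submitters' processing notes. Low FPKM values gave no common step per read: among 826 features with a mean under 0.3, at most 0.847% shared a ratio within 0.01 on the log2 scale. Depth is therefore unknown, and no counting interval is given.

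Of 15906 features, 14960 (94.1%) matched the Ensembl annotation by symbol or RefSeq synonym within the deposited locus, and 634 held several symbols. Coordinates are 1-based on dm6. With 1 library per group, no test was made: a feature was counted at 2-fold on the log2(FPKM + 1) scale after a filter of a mean of at least 1 FPKM. Members and lists were chosen with earlier results of these data known. All 30 members are named, and up to 3 genes with the largest absolute ratio from each of the 6 other muscle lists. Nonmuscle actin and myosin genes were also named as families, and further names from these lists are marked in the text. Genes of the lists under Other observations were not picked by this rule. Alternatives were pseudocounts of 0.1 and 5, other filters and thresholds, and 4 scalings. The planned searches of promoters, untranslated regions and protein sequences were not run, because no sequence was used here. Calculations used Python 3.11.15, numpy 2.4.6, pandas 2.3.3 and matplotlib 3.10.9, and were tested on simulated data.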

Additional observations from a re-analysis of the deposited data

How the results depend on the processing

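Pseudocounts of 0.1 and 5, no filter, a mean of at least 10 FPKM, scaling to the same upper quartile or to the same sum outside the 50 most abundant features, leaving out features with several symbols, transcripts of at least 1000 nt, and leaving out Act88F or adding the 3 shared features (the last a pair of choices made after seeing the data) left the counts past 2-fold at 0 and moved no median of the sarcomere genes or their 3 groups by 0.2 or more. Scaling to the same median put 1 gene, Act88F, at least 2-fold higher. Scaling to the same sum gave medians of -0.30 for the 27 genes, -0.34 for flight and jump muscle, -0.25 for thick and thin filaments and -0.38 for the Z-disc, with a ratio of sums of 0.775; there the median of all features was -0.27. A threshold of 1.5-fold gave 1 gene higher, and one of 1.2-fold, added after seeing the data, gave 1 higher and 4 lower. Of 295 recomputed values of single genes, 27 moved by 0.2 or more, all with the same sum.

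All features past 2-fold numbered 282 higher and 208 lower, against 366 and 332 with a pseudocount of 0.1, 175 and 102 with a pseudocount of 5, 180 and 91 with a mean of at least 10 FPKM, 175 and 360 with the same sum, and 75 and 35 among transcripts of at least 1000 nt. No paired analysis was possible because each group had 1 library. Unknown depth, 1 library per group and values per gene limit what small differences can show.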

Other observations

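A pair of further lists, written after the values of the sarcomere genes were seen, held muscle genes outside the lists above. Among 8 other muscle protein genes, 7 had a feature of their own and 6 were expressed, with a median log2 ratio of 0.02. The calponin family gene Mp20, a muscle protein of synchronous muscles, had 234 FPKM in miR-305 and 247 FPKM in control. Zormin, a titin-related protein of the Z-disc and M-line, had 22.4 FPKM in miR-305 and 21.0 FPKM in control. CG1674 stood farthest from equal, with 52.2 FPKM in miR-305 and 72.8 FPKM in control, a log2 ratio of -0.47.

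Of 13 genes of the muscle membrane and neuromuscular junction, 8 had a feature of their own and 7 of these passed the filter, with a median log2 ratio of -0.09. The sarcoglycans, which link the membrane to the cytoskeleton with dystroglycan, did not lie together: Scgdelta had 3.39 FPKM in miR-305 and 5.61 FPKM in control, Scgalpha had 2.21 FPKM in miR-305 and 3.37 FPKM in control, and Scgbeta had 6.52 FPKM in miR-305 and 5.41 FPKM in control. Dystroglycan (Dg) had 10.7 FPKM in miR-305 and 10.1 FPKM in control, and amphiphysin (Amph), which shapes the membrane tubules of muscle, had 50.5 FPKM in miR-305 and 59.5 FPKM in control. GluRIIC had 4.72 FPKM in miR-305 and 3.59 FPKM in control, a log2 ratio of 0.32.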
